A study of Homo sapiens with 9 samples.

Results

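The kinesin motor family was examined in A375, a long-established line of human melanoma cells with an activating BRAF mutation. Members were the rows of the deposited count table whose symbol is KIF followed by a number and at most one letter from A to C, or is KIFC1, KIFC2 or KIFC3. The rule found 42 of the 20463 annotated genes and used no measured value. By their textbook roles, 14 were placed among mitotic kinesins, 15 among transport kinesins and 13 in a remaining class. The classes were set with earlier results of these data known, and some placements could have gone otherwise. The depolymerase KIF2A and the neuronal motor KIF21B, for example, were put in the remaining class. CENPE is a kinesin of mitosis that this naming rule does not reach, and it is described with the spindle partners.

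Control cells were grown in the same way with no Salvianolic acid B (SalB), a phenolic compound of the root of Salvia miltiorrhiza, and the labels name no vehicle. Treated cells received SalB at 100 µM or at 200 µM for 48 h. There were 3 libraries per group, and 1 batch value covers all 9. All groups are 1 cell line, so the data describe that line only. The submitters call the libraries of a group biological replicates without saying that they came from separate cultures, and p-values measure the spread between these libraries.

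Kinesins are motor proteins that hydrolyse ATP and, in most cases, walk along microtubules or take their ends apart. Mitotic kinesins build the spindle, move chromosomes and complete cytokinesis, and their transcripts in dividing cells are typically most abundant in G2 and M phase. Transport kinesins carry vesicles, organelles, mRNA and ciliary material, and are used by cells whether or not they divide. In bulk RNA, fewer cells in mitosis and less RNA of a gene per cell cannot be told apart.

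The promoters of 5 mitotic kinesins and of KIF1C, a transport kinesin, are shown first. The classes differed in short promoter motifs, and whether the motifs relate to the fold changes was not tested. Each sequence is the 100 bases before the start annotated by RefSeq on GRCh38.p14, 5′ to 3′ on the gene's strand. Capitals mark TTTGAA, the core of the cell cycle genes homology region (CHR), or CCAAT, the core bound by NF-Y, in either orientation. The 6 were picked after their matches were seen, from windows with no more than 30 bases inside the gene as annotated by GENCODE.
KIF4A, chrX:70290004-70290103, plus strand: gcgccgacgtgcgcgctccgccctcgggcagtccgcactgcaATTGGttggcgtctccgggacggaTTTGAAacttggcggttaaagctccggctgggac
KIF11, chr10:92593030-92593129, plus strand: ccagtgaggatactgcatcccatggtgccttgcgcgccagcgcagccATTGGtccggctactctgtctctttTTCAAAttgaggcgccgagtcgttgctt
KIF14, chr1:200620752-200620851, minus strand: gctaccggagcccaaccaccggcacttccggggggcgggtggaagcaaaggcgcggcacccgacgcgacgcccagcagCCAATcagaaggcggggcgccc
KIF18B, chr17:44947774-44947873, minus strand: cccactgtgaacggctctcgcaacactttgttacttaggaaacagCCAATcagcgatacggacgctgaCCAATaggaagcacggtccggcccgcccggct
KIF2C, chr1:44739737-44739836, plus strand: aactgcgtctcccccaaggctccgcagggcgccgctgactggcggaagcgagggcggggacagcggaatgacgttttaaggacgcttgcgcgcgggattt
KIF1C, chr17:4997850-4997949, plus strand: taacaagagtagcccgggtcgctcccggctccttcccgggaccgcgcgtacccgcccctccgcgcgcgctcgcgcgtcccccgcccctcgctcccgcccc

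Of the 42 kinesins, 34 had a promoter window of 300 bases in the RefSeq table, from 250 bases before the start to 50 from it on. TTTGAA, searched on both strands, was in a window of 10 of 14 mitotic, 1 of 11 transport and 0 of 9 other kinesins, against 15.2% of all 35116 windows. CCAAT was in 11 of 14 mitotic, 4 of 11 transport and 3 of 9 other kinesins, against 34.6% of windows. Both motifs were found together in 9 of 14 mitotic, 1 of 11 transport (KIF5B) and 0 of 9 other kinesins, against 5.9% of windows. With the start base counted as 0, KIF4A has its CCAAT match at -58 to -54 and its TTTGAA match at -34 to -29. KIF14 and KIF18B carry TTTGAA at 1 to 6 and 2 to 7, outside the stretch printed. KIF20A has CCAAT without TTTGAA, and KIF2C has neither motif.

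Other motifs searched separated the classes less. The CHR variant TTCGAA was in KIF22 and KIF24 only among kinesins, and in 1.45% of all windows. TTCCCGC, an E2F-type motif, was in 0 of 14 mitotic and 2 of 11 transport kinesins, against 6.55% of windows. TTGGCGC, also E2F-type, was in 3 of 14 mitotic and 1 of 11 transport kinesins, against 3.04% of windows. These are matches of letters and not measured binding sites, the 5 motifs were chosen with the fold changes known, and genes with several windows had more chances of a match.

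**Figure D1:**
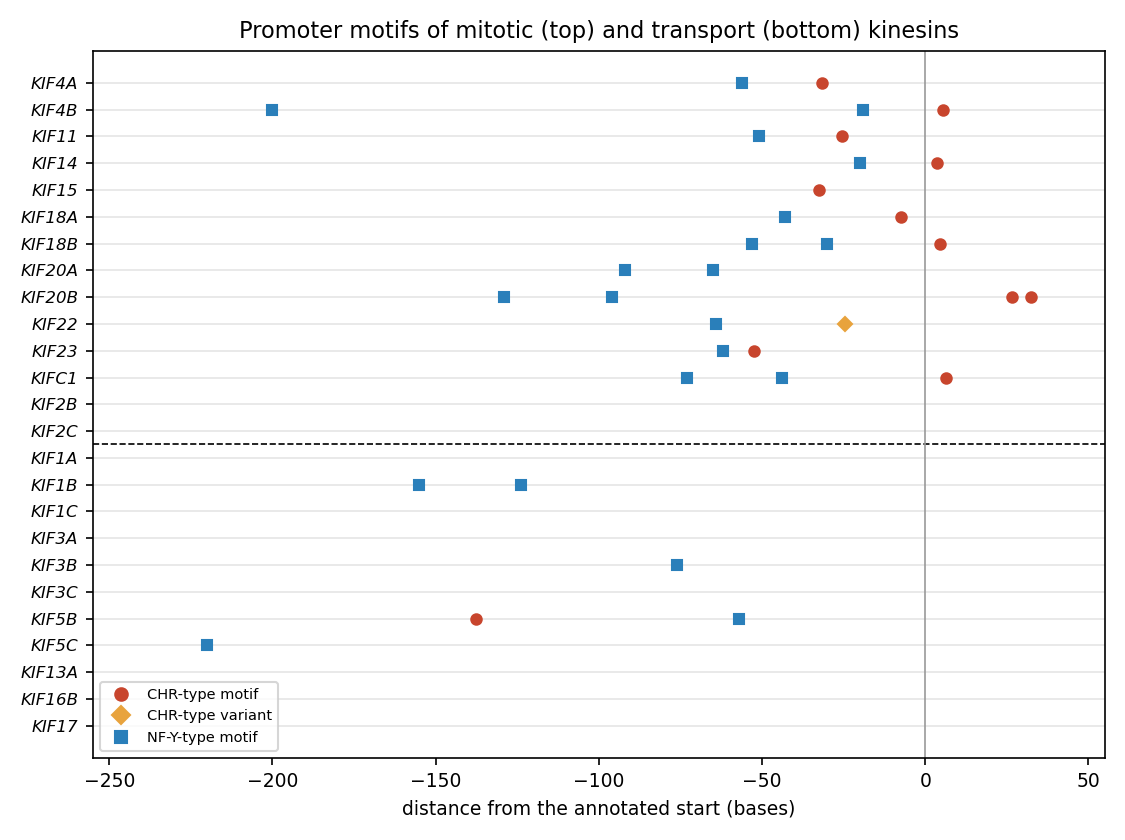
Positions of CHR-type (TTTGAA, red circles), CHR-type variant (orange diamonds) and CCAAT (blue squares) matches, in bases from the RefSeq start, in 14 mitotic kinesins above the dashed line and 11 transport kinesins below it. Where a gene has several windows the one with the lowest coordinate is drawn. Matches crowd near the start in the mitotic class, and KIF5B alone in the transport class has the CHR-type motif.

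Library totals ran from 27348621 to 30629685 counts. The melanoma line was checked by its markers: SOX10 and S100B, neural crest lineage genes, averaged 341 and 41.6 CPM (counts scaled to library size) in control, and MITF 28.6 CPM. The pigment genes PMEL, MLANA, TYR, DCT and TYRP1 averaged under 1 CPM there. Of 6 leukocyte markers 2 were at 0 in all 9 libraries, and the summed level of the 6 was 1.75 to 4.32 CPM. Of 6 epithelial markers 1 was at 0 throughout, and KRT8 and KRT18 made up nearly all of their summed 234 to 395 CPM. Fibroblast and endothelial markers summed to 11.1 to 12.8 CPM in control, 30.8 to 35.2 CPM at 100 µM and 18.4 to 27.4 CPM at 200 µM, mostly PDGFRB; the part of these markers in the results was not tested.

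One library stands apart. Replicate 3 at 200 µM had 4.69% of its counts on mitochondrially encoded mRNAs, against 1.85% and 1.81% in the other libraries of that group. Its log2 gap between GC-rich and GC-poor genes, relative to the mean control, was -0.31, against 0.48 and 0.96 in those libraries, and 0.69 to 0.93 at 100 µM. Calls against control that change without it are named below with their values.

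Mitotic kinesins were the larger share of the family's RNA in untreated cells and the smaller share at the higher dose. Their summed level was 1488, 1521 and 1454 CPM in control, 1505, 1534 and 1517 CPM at 100 µM, and 588, 548 and 829 CPM at 200 µM. The 200 µM libraries all lay below the others, and replicate 3 was the highest of them. Transport kinesins summed to 774, 791 and 762 CPM in control, 802, 849 and 856 CPM at 100 µM, and 921, 870 and 980 CPM at 200 µM, with no overlap between groups. The mitotic share of kinesin CPM was 58.1% ± 0.0642 (SD, n = 3) in control, 57.7% ± 0.698 (SD, n = 3) at 100 µM and 35.3% ± 3.24 (SD, n = 3) at 200 µM.

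**Figure D2:**
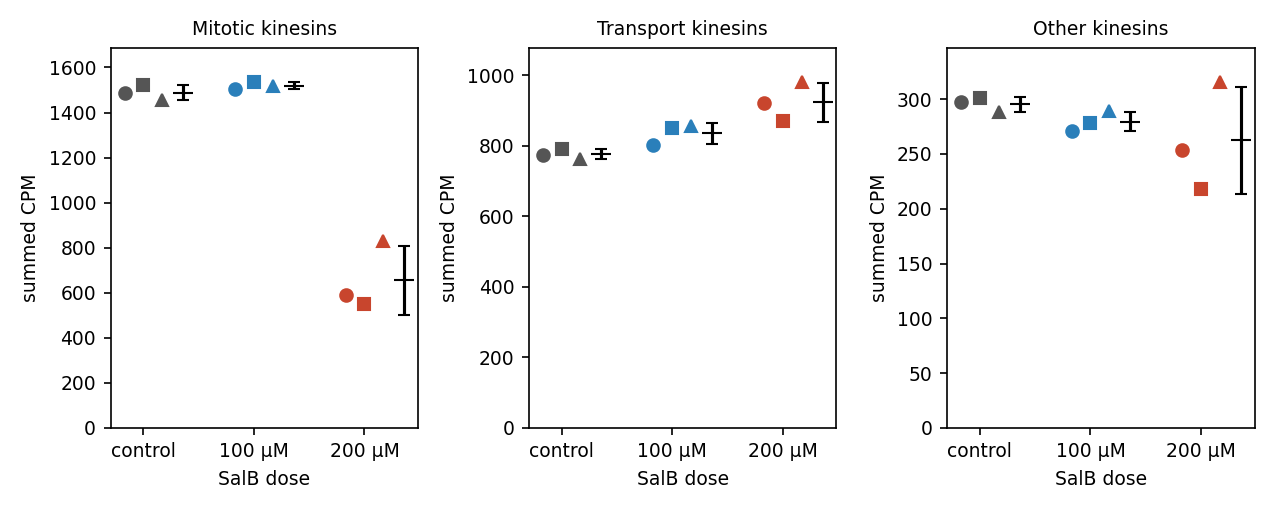
Summed CPM of the mitotic, transport and other kinesins in each library, with linear axes from 0. Circles, squares and triangles are replicates 1, 2 and 3, and black bars beside them are the mean ± SD of 3 libraries. The mitotic sum at 200 µM is the only one far below control.

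Per kilobase of exon, the most abundant kinesins in control were KIF11 at 57.3 CPM per kb and KIF5B at 55.7 CPM per kb. KIF11 libraries ranged from 53.8 to 62.0 and KIF5B libraries from 52.0 to 59.0 CPM per kb, so this pair did not differ beyond its spread. KIF2C followed at 45.0, KIF20A at 41.0 and KIF2A at 35.4 CPM per kb. KIF11 is the plus-end motor that pushes spindle poles apart, KIF5B the widely expressed heavy chain of conventional kinesin, and KIF2A a microtubule depolymerase.

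The next comparison asks which kinesins differed between 200 µM SalB and control. All 13 mitotic kinesins tested were lower and none was higher, with log2 fold changes from -1.65 to -0.84. This count depends on the class placement: KIF2A, a depolymerase kept in the other class, gave 0.003 ± 0.16 and did not pass. KIF4B, counted among the 13, had few counts and an uncertain call, as given below. Of 14 transport kinesins, 9 were higher, 1 was lower and 4 did not pass the test, and of 9 other kinesins, 1 was higher and 3 were lower. Calls are at an adjusted p under 0.05 in edgeR's quasi-likelihood test with Benjamini-Hochberg adjustment over 13968 genes. By the same rule, 37.3% of all genes tested were called, 19.8% higher and 17.5% lower. The median log2 fold change was -1.20 for mitotic, 0.47 for transport and -0.39 for other kinesins, against 0.00 for all genes. The libraries of the 2 groups did not overlap for 13 of 13 mitotic, 10 of 14 transport and 4 of 9 other kinesins, against 48.8% of all genes. Without replicate 3 at 200 µM, and under every other alternative, 11 to 13 mitotic kinesins were called lower. Without that library the log2 fold changes were further below 0 for most of the class, such as KIF18A (-2.08), KIF14 (-1.68) and KIF15 (-1.52). They were nearer 0 for KIF22 (-0.71), KIFC1 (-0.88), KIF18B (-1.25) and KIF2C (-1.39), all still called. KIF4B was nearer 0 as well and no longer called (-1.22, adjusted p = 0.07).

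**Figure D3:**
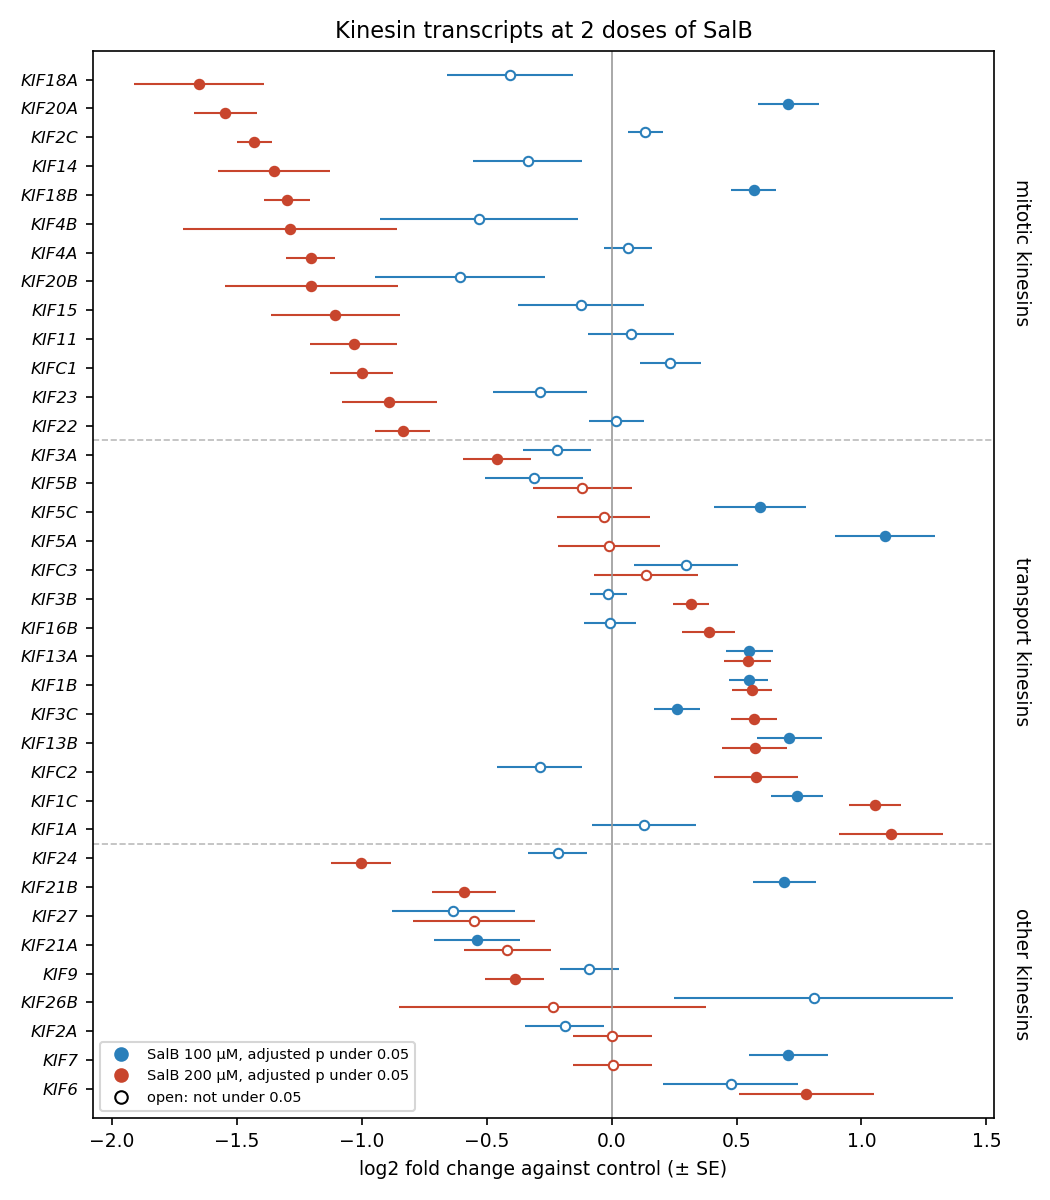
Log2 fold change against control with its SE for the 36 kinesins tested, at 100 µM (blue) and 200 µM (red). Filled points have an adjusted p under 0.05. All red points of the mitotic class lie left of 0, and most of the transport class lie right of it.

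Among motors that build the spindle, KIF11 (chr10:92593286-92655395) measured 273, 301 and 261 CPM in control and 123, 105 and 180 CPM at 200 µM. Groups did not overlap, and KIF11 fell 2.05-fold (log2 fold change -1.03 ± 0.17, adjusted p = 0.0018). KIF15, a plus-end motor that can share KIF11's work, measured 60.6, 58.7 and 63.0 CPM in control and 23.5, 18.4 and 42.9 CPM at 200 µM (log2 fold change -1.11 ± 0.26, adjusted p = 0.0089). KIFC1, a minus-end motor that draws poles together and clusters extra centrosomes, measured 25.5, 24.0 and 26.5 CPM and then 13.5, 13.8 and 10.6 CPM (log2 fold change -1.001 ± 0.12, adjusted p = 0.00033). Replicate 3 was the highest 200 µM library for KIF11 and KIF15 and the lowest for KIFC1. Of the exonic bases of KIFC1, 12.7% overlap the pseudogene RPL12P1, and since the strand setting of the counting is not given, their reads cannot be told apart.

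By point estimate, motors that act on chromosomes and their microtubules held both the largest and the smallest fall of the class. KIF20A (-1.55 ± 0.13) and KIF23 (-0.89 ± 0.19), described below, lay within the errors of these 200 µM ranks. With the GC trend removed, KIF20A (-1.59) had the largest fall and KIF23 (-0.84) the smallest. KIF18A (chr11:28020620-28108308), which damps chromosome movement at the metaphase plate, measured 79.7, 91.5 and 79.6 CPM in control and 21.4, 17.9 and 40.5 CPM at 200 µM. It fell 3.14-fold (log2 fold change -1.65 ± 0.26, adjusted p = 0.0012), the largest fall of the 36 kinesins tested. KIF2C (chr1:44739818-44767767), the depolymerase MCAK that corrects faulty kinetochore attachments, measured 166, 163 and 164 CPM and then 58.9, 65.2 and 58.7 CPM. Its log2 fold change of -1.43 ± 0.07 (adjusted p = 2.4e-06) had the smallest error of the class, and its replicate 3 was level with the others. In the authors' deposited table of 100 features, the single kinesin listed is KIF2C, at 52.9, 52.9 and 53.7 in control, 61.7, 60.5 and 59.9 at 100 µM, and 19.8, 21.4 and 17.8 at 200 µM, in units inferred to be FPKM. KIF18B, which shortens astral microtubules, measured 42.5, 43.7 and 47.4 CPM in control and 17.1, 19.9 and 17.3 CPM at 200 µM (log2 fold change -1.30 ± 0.09, adjusted p = 1.5e-05). KIF22, the chromokinesin that pushes chromosome arms outward, showed the smallest fall, from 119, 115 and 127 CPM to 68.9, 76.8 and 56.4 CPM (log2 fold change -0.84 ± 0.11, adjusted p = 0.00048), and 13% of its exonic bases overlap the antisense gene AC009133.4.

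Midzone and cytokinesis motors fell as well. KIF20A (chr5:138178719-138187715), which carries the chromosomal passenger complex to the midzone, measured 165, 160 and 162 CPM in control and 46.0, 53.8 and 67.0 CPM at 200 µM, a 2.92-fold fall (log2 fold change -1.55 ± 0.13, adjusted p = 3.3e-05). KIF4A, which sets midzone length with PRC1, measured 116, 115 and 111 CPM and then 45.8, 46.4 and 56.2 CPM (log2 fold change -1.20 ± 0.10, adjusted p = 3.2e-05). KIF14, a midbody motor, went from 108, 106 and 98.6 CPM to 37.2, 27.5 and 58.0 CPM (log2 fold change -1.35 ± 0.22, adjusted p = 0.0016). The 200 µM libraries of these genes lay below every control library, with replicate 3 the highest in each.

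KIF23, the motor subunit of centralspindlin, measured 154, 152 and 148 CPM in control and 67.2, 64.6 and 113 CPM at 200 µM (log2 fold change -0.89 ± 0.19, adjusted p = 0.0057). KIF20B, needed for abscission, had the widest spread, with 177, 190 and 166 CPM in control and 65.1, 38.4 and 128 CPM at 200 µM. Its log2 fold change was -1.20 ± 0.34 (adjusted p = 0.023), became -1.77 without replicate 3, and was no longer called when control replicate 1 or 2 or 200 µM replicate 1 was left out. KIF4B, a near-identical copy of KIF4A, was at 0.142 to 0.901 CPM in the control and 200 µM libraries, where KIF4A was at 45.8 to 116 CPM. Whether reads counted for KIF4B came from KIF4A was not tested. The KIF4B call (log2 fold change -1.29 ± 0.43, adjusted p = 0.041) was lost under 12 of the 17 alternatives that tested it, so the call is uncertain. KIF2B had 0 counts in every library.

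**Figure D4:**
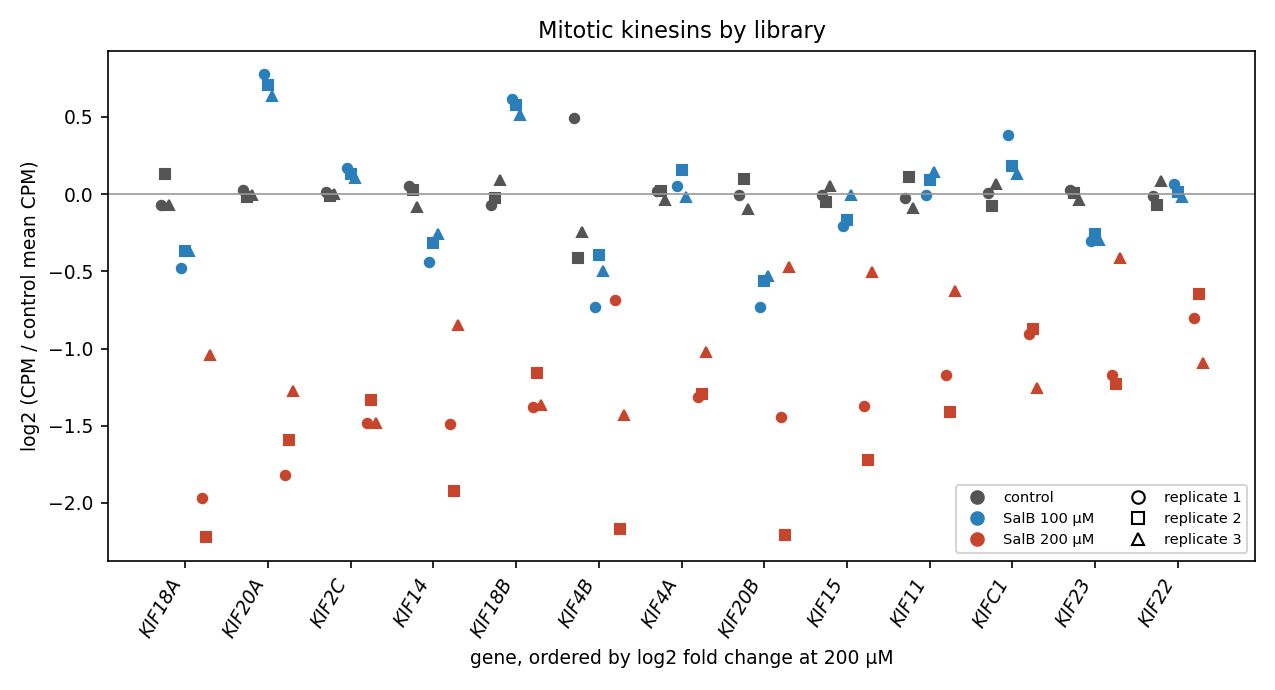
Log2 ratio of each library's CPM to the control mean for the 13 mitotic kinesins tested, ordered by fold change at 200 µM, with colour for group and marker shape for replicate. All red points lie below 0, and red triangles (replicate 3) are often higher than red circles and squares, with KIF20B the widest.

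Most transport kinesins were higher at 200 µM or did not pass the test. KIF1C (chr17:4997948-5028401), a vesicle motor, measured 67.1, 60.7 and 69.6 CPM in control, 109, 110 and 111 CPM at 100 µM and 137, 154 and 118 CPM at 200 µM. No group overlapped another, and KIF1C rose 2.08-fold at 200 µM (log2 fold change 1.05 ± 0.10, adjusted p = 9.1e-05). KIF1A, the neuronal carrier of synaptic vesicle precursors, was low but rose 2.17-fold, from 2.91, 2.96 and 3.98 CPM to 6.74, 8.33 and 6.35 CPM (log2 fold change 1.12 ± 0.21, adjusted p = 0.0029). KIF1B, which carries mitochondria and vesicle precursors, went from 71.3, 71.8 and 74.5 CPM to 110, 97.8 and 113 CPM (log2 fold change 0.56 ± 0.08, adjusted p = 0.00068).

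Endosomal motors rose too. KIF13A, which moves recycling endosomes and takes part in melanosome biogenesis, had 22.2, 25.4 and 21.0 CPM in control and 31.8, 33.1 and 35.3 CPM at 200 µM (log2 fold change 0.54 ± 0.09, adjusted p = 0.0021). KIF13B had 16.0, 16.7 and 17.8 CPM and then 28.4, 26.4 and 20.3 CPM (log2 fold change 0.57 ± 0.13, adjusted p = 0.0081). KIF16B, a motor of early endosomes, had 22.9, 23.7 and 22.5 CPM and then 28.8, 26.8 and 34.8 CPM (log2 fold change 0.39 ± 0.11, adjusted p = 0.018), and dropping control replicate 1 or 3 ended the call. The control and 200 µM libraries did not overlap for any of these genes.

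Subunits of heterotrimeric kinesin-2, which drives anterograde transport in cilia, were called in both directions. KIF3B rose (log2 fold change 0.32 ± 0.07, adjusted p = 0.0082), with 54.3, 57.0 and 56.0 CPM in control and 66.5, 73.1 and 68.9 CPM at 200 µM. KIF3C rose (log2 fold change 0.57 ± 0.09, adjusted p = 0.0013), with 43.7, 42.4 and 46.4 CPM and then 62.9, 72.3 and 61.4 CPM. KIF3A, the partner of both, fell (log2 fold change -0.46 ± 0.14, adjusted p = 0.027), with 43.5, 48.0 and 38.1 CPM and then 34.0, 26.5 and 33.8 CPM. Dropping control replicate 1 or 2 or 200 µM replicate 2 ended the KIF3A call, as did removing the GC trend. The accessory subunit KIFAP3 was lower at both doses, with 79.7, 85.4 and 81.1 CPM in control, 62.1, 66.0 and 61.2 CPM at 100 µM and 63.3, 61.2 and 65.7 CPM at 200 µM (adjusted p = 0.0038 at each dose).

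Conventional kinesin heavy chains showed no difference at 200 µM that passed the test. KIF5B had 329, 347 and 306 CPM in control, 233, 274 and 284 CPM at 100 µM and 292, 212 and 401 CPM at 200 µM, with log2 fold changes of -0.31 ± 0.20 and -0.12 ± 0.20. Without 200 µM replicate 3, its highest library at that dose, the second was -0.36 and also did not pass (adjusted p = 0.057). The neuronal forms KIF5A and KIF5C, at 2.16 to 2.93 and 6.28 to 11.0 CPM in control, gave -0.01 ± 0.20 and -0.03 ± 0.19 at 200 µM. KIFC3, a minus-end motor of adherens junctions and Golgi, had 76.8, 70.6 and 80.1 CPM in control and 90.3, 107 and 53.0 CPM at 200 µM. Its log2 fold change of 0.14 ± 0.21 did not pass, and without replicate 3, the low library, it was 0.39 (adjusted p = 0.0025).

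KIFC2, a minus-end motor, had 13.8, 11.0 and 18.3 CPM in control, 12.4, 11.9 and 11.0 CPM at 100 µM and 20.3, 22.9 and 21.1 CPM at 200 µM. It was higher at 200 µM (log2 fold change 0.58 ± 0.17, adjusted p = 0.025). Removing the GC trend, or dropping control replicate 1 or 2 or 200 µM replicate 2, ended that call, and 17.8% of its exonic bases overlap FOXH1. KIF17, a motor of dendrites and cilia, had 59 counts in all 9 libraries, at most 0.173 CPM in control and 0.285 to 0.544 CPM at 200 µM, and was not tested.

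**Figure D5:**
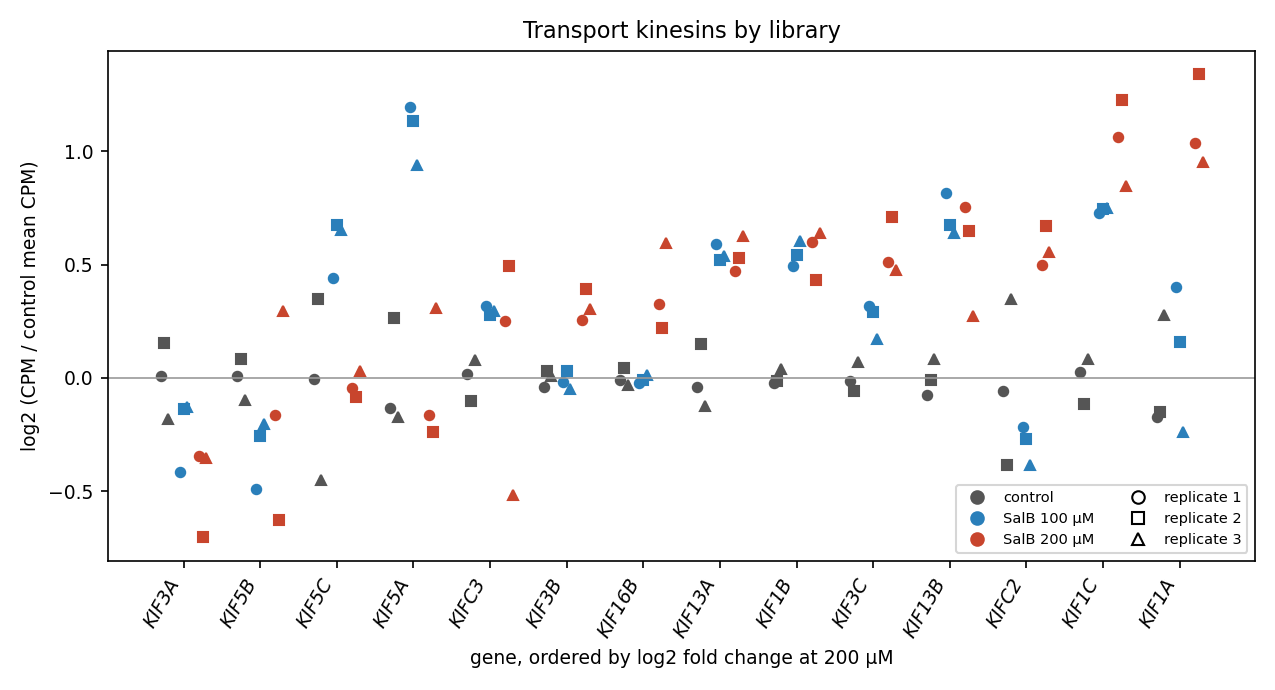
Log2 ratio of each library's CPM to the control mean for the 14 transport kinesins tested, ordered by fold change at 200 µM, with colour for group and marker shape for replicate. KIF1C and KIF1A lie highest at 200 µM, KIF5A is high at 100 µM only, and KIF5B and KIFC3 spread widely at 200 µM.

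The remaining class was mixed. KIF24, a depolymerase that restrains cilium formation, fell 2.004-fold, from 15.0, 17.2 and 16.0 CPM to 7.54, 8.22 and 8.26 CPM (log2 fold change -1.003 ± 0.12, adjusted p = 0.00028). KIF21B, a neuronal motor that limits microtubule growth, went from 26.5, 24.1 and 29.1 CPM to 18.1, 19.7 and 15.1 CPM (log2 fold change -0.59 ± 0.13, adjusted p = 0.0062). KIF9 fell (log2 fold change -0.39 ± 0.12, adjusted p = 0.03) and KIF6 rose (log2 fold change 0.78 ± 0.27, adjusted p = 0.049), calls lost under 7 and 12 of 18 alternatives. Of the exonic bases of KIF9, 14.9% overlap KIF9-AS1.

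KIF2A did not pass either test, at 167, 177 and 162 CPM in control, 137, 151 and 156 CPM at 100 µM and 161, 131 and 216 CPM at 200 µM. KIF27 gave log2 fold changes of -0.63 ± 0.25 at 100 µM and -0.55 ± 0.25 at 200 µM, neither passing. Without 200 µM replicate 3 they were -0.61 (adjusted p = 0.015) and -0.81 (adjusted p = 0.0079), both called lower. KIF26B was at 0.107 to 0.713 CPM. KIF12, KIF25 and KIF26A had 24, 12 and 27 counts in all libraries and KIF19 had 0, so they were not tested.

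At 100 µM the mitotic class as a whole was near control, and several transport kinesins were already higher. Against control, 2 of 13 mitotic kinesins were higher and 0 lower, 7 of 14 transport kinesins were higher and 0 lower, and 2 of 9 other kinesins were higher and 1 lower. By edgeR's quasi-likelihood test with Benjamini-Hochberg adjustment, 37.1% of all genes tested were called, 18.9% higher and 18.2% lower. The median log2 fold change was 0.02 for mitotic and 0.28 for transport kinesins, against -0.01 for all genes. These medians are of values with the GC trend, described below, left in. The spread is shared by all groups: without 200 µM replicate 3, the kinesins called at 100 µM went from 12 to 20 of 36, or from 33.3% to 55.6%, while all genes called went from 37.1% to 56.1%. The mitotic kinesins then called were 4 higher, with KIF2C (0.16) and KIFC1 (0.26) added, and 4 lower, KIF14 (-0.31), KIF18A (-0.38), KIF20B (-0.58) and KIF23 (-0.26). KIFC3 was also called higher there (0.32). With the GC trend removed and all 9 libraries kept, KIF14 (0.02), KIF18A (0.02), KIF20B (-0.05) and KIF23 (-0.11) were not called. Nor were KIF2C (0.03), KIFC1 (-0.04) and KIFC3 (-0.10).

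KIF20A and KIF18B were higher at 100 µM although lower at 200 µM. KIF20A reached 279, 265 and 252 CPM, 1.63-fold over control (log2 fold change 0.71 ± 0.12, adjusted p = 0.0023). KIF18B reached 68.2, 66.5 and 63.5 CPM, 1.48-fold over control (log2 fold change 0.57 ± 0.09, adjusted p = 0.0014). In both, every 100 µM library was above every control library and every 200 µM library was below them. KIF21B followed the same order at 47.4, 39.4 and 42.0 CPM (log2 fold change 0.69 ± 0.13, adjusted p = 0.0029). Between 100 µM and control, libraries did not overlap for 8 of 13 mitotic, 9 of 14 transport and 5 of 9 other kinesins. Of all genes, 67% did not overlap in that comparison.

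Rises at 100 µM in the transport class were led by KIF5A, from 2.22, 2.93 and 2.16 CPM to 5.59, 5.35 and 4.67 CPM (log2 fold change 1.09 ± 0.20, adjusted p = 0.0029). KIF5A was back at 2.18, 2.07 and 3.02 CPM at 200 µM. KIF5C rose to 11.7, 13.7 and 13.5 CPM (log2 fold change 0.59 ± 0.18, adjusted p = 0.032), and dropping control replicate 1 or 3 or any 100 µM replicate ended the call. KIF1C (log2 fold change 0.74 ± 0.10), KIF13B (0.71 ± 0.13), KIF13A (0.55 ± 0.09) and KIF1B (0.55 ± 0.08) rose at this dose too, with adjusted p-values from 0.00071 to 0.003. KIF3C was higher by 0.26 ± 0.09 (adjusted p = 0.0496), a call lost under 11 of 18 alternatives.

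KIF7, a regulator of Hedgehog signalling at the cilium tip, was at 13.7, 11.2 and 14.8 CPM in control, 21.6, 21.1 and 22.2 CPM at 100 µM and 14.3, 15.2 and 10.4 CPM at 200 µM. It was higher at 100 µM (log2 fold change 0.71 ± 0.16, adjusted p = 0.0074), and 11.8% of its exonic bases overlap TICRR. KIF21A, a cortical motor, was lower at 100 µM (log2 fold change -0.54 ± 0.17, adjusted p = 0.036), a call lost under 8 of 18 alternatives. At 200 µM it gave -0.42 ± 0.17 and did not pass, and without 200 µM replicate 3 it was called at -0.64 (adjusted p = 0.00034).

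GC content moved with these values. Across the 36 kinesins, Spearman's rho between GC content and log2 fold change was 0.60 at 100 µM and 0.42 at 200 µM, against 0.48 and 0.22 over 13874 genes, and the genes share their libraries. Of the mitotic class, KIF18B at 58.4% GC was higher at 100 µM, and KIF20B at 34.2% and KIF18A at 37.0% GC had negative values. Other members departed from this order: KIF22 at 58.9% GC was at 0.02 and KIF11 at 38.3% at 0.08. The largest rise of the class was KIF20A (0.71) at 48.4% GC. With each library's GC trend removed, KIF20A kept a log2 fold change of 0.66 and KIF18B had 0.28 at 100 µM, both called, and at 200 µM the mitotic values ranged from -1.59 for KIF20A to -0.84 for KIF23. The same step changed calls in both directions at 100 µM: KIF11 went from 0.08 to 0.43 and was called higher (adjusted p = 0.0015), KIF22 went from 0.02 to -0.28 and was called lower (adjusted p = 0.0011), KIFC2 went from -0.29 to -0.72 and was called lower (adjusted p = 0.015), and KIF3C went from 0.26 to 0.04 and lost its call. KIF21B went from 0.69 to 0.37 and KIF7 from 0.71 to 0.32, both still called. Of the transport kinesins still called, KIF1C went from 0.74 to 0.54, KIF13B from 0.71 to 0.51 and KIF5A from 1.09 to 0.96. KIF13A went from 0.55 to 0.57, KIF5C from 0.59 to 0.68 and KIF1B from 0.55 to 0.54. Of those not called, KIF1A fell from 0.13 to -0.22 and KIFC3 from 0.30 to -0.10, and KIF3A and KIF5B rose to 0.16 and 0.005. The part of GC content in the differences at 100 µM was otherwise not tested.

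The direct comparison of doses tests the difference between them. Of 13 mitotic kinesins, 11 were lower at 200 µM than at 100 µM and 0 higher, and of 14 transport kinesins, 6 were higher and 2 lower. All of the other class called, 3 of 9, were lower. Among the calls of this comparison, KIF1C was lost under 9 of 18 alternatives, KIF3C under 6, KIF23 under 5, KIF5C under 3 and KIF16B under 1. Of all genes, 44.4% were called by edgeR's quasi-likelihood test with Benjamini-Hochberg adjustment, 22.4% higher and 21.9% lower. The 2 doses did not overlap for 11 of 13 mitotic and 8 of 14 transport kinesins, against 53.3% of all genes. KIF20A fell 4.77-fold (log2 fold change -2.25 ± 0.13, adjusted p = 2.6e-06) and KIF18B 3.65-fold (-1.87 ± 0.09, adjusted p = 1.2e-06). KIF5A fell by 1.11 ± 0.20 on the log2 scale (adjusted p = 0.002), and KIF1A was higher by 0.99 ± 0.21 (adjusted p = 0.0043). KIFC2 was higher by 0.87 ± 0.17 (adjusted p = 0.003). KIF20B (-0.59 ± 0.34, adjusted p = 0.19) and KIF4B did not pass, and KIF20B was called at -1.18 without 200 µM replicate 3.

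Spindle and midzone partners of the mitotic kinesins were counted from a list of 28 genes. Values of this and the following partner lists have the GC trend left in, and its part in them was not tested. At 200 µM, 23 were lower and 1 higher, with a median log2 fold change of -0.96, and at 100 µM, 2 were lower and 7 higher, with a median of -0.01. Of all genes, 17.5% were lower and 19.8% higher at 200 µM, and 37.1% were called at 100 µM, where the 9 of 28 partners called are near that share. CENPE, the kinetochore kinesin that moves chromosomes to the plate, had 169, 182 and 154 CPM in control, 135, 151 and 147 CPM at 100 µM and 33.4, 18.9 and 65.3 CPM at 200 µM. It fell 4.30-fold at 200 µM (log2 fold change -2.10 ± 0.36, adjusted p = 0.0019), more than any kinesin named by the rule. CCNB1 (cyclin B1) fell by 1.70 ± 0.07, CDK1, its kinase partner, by 1.83 ± 0.09, PLK1 by 1.49 ± 0.10 and AURKA by 1.00 ± 0.07 on the log2 scale, with edgeR quasi-likelihood adjusted p-values from 1.1e-06 to 2e-05.

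CDK1 differed from these partners at 100 µM. It was already lower there, at 155, 168 and 177 CPM against 327, 363 and 325 CPM in control (log2 fold change -1.02 ± 0.09), and NEK7, a spindle kinase, was lower by 1.03 ± 0.16 on the log2 scale. NUMA1, a spindle pole protein, was higher by 0.75 ± 0.08 and INCENP, a passenger complex subunit, by 0.77 ± 0.09 at 100 µM, with edgeR adjusted p-values from 6e-05 to 0.0015 over these 4 genes. INCENP was lower by 0.76 ± 0.09 on the log2 scale at 200 µM. Of the exonic bases of NUMA1, 18.1% overlap AP002490.1, and of those of PLK1, 11.6% overlap AC008870.3.

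Of 18 light chains and cargo adaptors tested, 5 were higher and 1 lower at 100 µM, and 5 higher and 2 lower at 200 µM. The shares called, 33.3% and 38.9%, were near those of all genes, 37.1% and 37.3%. KLC1, a kinesin light chain, had 103, 110 and 108 CPM in control, 130, 119 and 120 CPM at 100 µM and 132, 124 and 127 CPM at 200 µM (edgeR adjusted p = 0.048 and 0.02), and 29.9% of its exonic bases overlap XRCC3 and 10.3% AL139300.1. KLC2 was higher at 200 µM (log2 fold change 0.62 ± 0.09). MAP7D1, which recruits kinesin-1 to microtubules, was higher by 0.87 ± 0.08 and 0.58 ± 0.08, and TRAK1, the mitochondrial adaptor, by 1.04 ± 0.12 and 0.49 ± 0.12. PLEKHM2, the lysosomal adaptor, was higher by 0.67 ± 0.14 and 0.57 ± 0.14. MAPK8IP1, a JNK scaffold that binds light chains, was higher at 100 µM (0.42 ± 0.12) and lower at 200 µM (-0.80 ± 0.12), with 11.7% of its exonic bases shared with AC068385.1. KIFBP, a protein that blocks kinesins from microtubules, gave -0.35 ± 0.13 and 0.02 ± 0.13, neither passing.

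Cytoplasmic dynein and dynactin, the minus-end transport machinery, had 5 higher and 6 lower of 24 tested at 100 µM, and 4 higher and 4 lower at 200 µM. The shares called, 45.8% and 33.3%, compare with 37.1% and 37.3% of all genes. The heavy chain DYNC1H1 went from 116, 119 and 127 CPM to 298, 287 and 281 CPM at 100 µM and 237, 266 and 213 CPM at 200 µM (log2 fold changes 1.26 ± 0.09 and 0.99 ± 0.09, edgeR adjusted p = 2.4e-05 and 6.4e-05). DCTN1, the large dynactin subunit, was higher at 100 µM by 0.76 ± 0.08, and the regulator NDEL1 at 200 µM by 0.71 ± 0.09. The light chains DYNLT3 and DYNLT1 were lower at both doses, by 1.82 ± 0.26 and 0.61 ± 0.13 on the log2 scale at 100 µM. The dynactin subunit ACTR10 was lower at both doses too (-0.54 ± 0.11 and -0.66 ± 0.11). The light chain DYNLL1 was lower at 100 µM (-0.69 ± 0.10), and its -0.16 ± 0.10 at 200 µM did not pass.

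Intraflagellar transport genes, whose trains kinesin-2 pulls, had 2 higher and 6 lower of 20 tested at 100 µM, and 0 higher and 16 lower at 200 µM, with a median log2 fold change of -0.43. The 40.0% called at 100 µM was near the 37.1% of all genes, and at 200 µM 17.5% of all genes were lower. The largest fall of those named was IFT88, from 28.2, 31.7 and 26.7 CPM to 13.9, 11.2 and 16.1 CPM (log2 fold change -1.07 ± 0.14, edgeR adjusted p = 0.00042). IFT22 was lower by 0.82 ± 0.10, IFT52 by 0.69 ± 0.10 and WDR35 by 0.57 ± 0.09 on the log2 scale. IFT140 and IFT122 were higher at 100 µM, by 0.75 ± 0.10 and 0.49 ± 0.10, and lower at 200 µM. IFT80 and IFT25 were lower at 100 µM, by 0.75 ± 0.13 and 0.55 ± 0.09 on the log2 scale. GC content was 59.7% for IFT140, 54.9% for IFT122, 36.9% for IFT80 and 52.0% for IFT25. Of the exonic bases of IFT80, 27.2% overlap AC079594.2 on the same strand.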

How the data were processed

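Read counts per gene in 9 libraries were deposited by the authors as whole numbers with no normalization. The submitters' processing notes name GRCh38 and the tools (featureCounts, HISAT2, DESeq2 and FastQC), without roles. Neither versions nor the annotation release nor the strand setting is stated there. The 100-feature table the authors deposited is read as FPKM, a unit inferred here: transcript length implied by counts and values, over the annotated length, had a median of 0.807 with union exon length and 1.04 with the longest transcript, over 98 features, and the second length was tried after the first was seen.

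The analysis used edgeR 4.0.16 under R 4.3.3, with DESeq2 1.42.0 as an alternative. The 2142 assembled transcripts without an Ensembl identifier, 1.25% to 1.41% of a library's counts, were left out. filterByExpr left 13968 genes, TMM scaled the libraries, and a robust quasi-likelihood fit to all 9 libraries (6 residual degrees of freedom) gave 3 comparisons, adjusted by Benjamini-Hochberg and called under 0.05. SE is the size of the log2 fold change over the square root of F. CPM uses TMM-scaled library sizes. Positions, lengths, GC content and exon overlaps are from GENCODE 29 on GRCh38; overlaps under 10% of exonic bases are not marked. An exact permutation test of 3 against 3 libraries cannot go below a two-sided p of 0.1, so p-values come from the model. The fit was tested on data simulated as 200 µM against control, with known changes in 100 of 13688 genes. At a log2 size of 1 it recovered 89% of them with 10 false calls. At a log2 size of 2 it recovered 96% with 10 false calls. Beside at most 100 true calls, 10 false ones are a larger share than the threshold of 0.05. Far fewer genes were changed in the simulation than the 37.3% called at 200 µM, so these rates need not carry over. No pair of libraries of a group was a copy (chi-square per degree of freedom 7.47 to 155).

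Members, classes and lists were chosen with earlier results of these data known. Every kinesin is accounted for. From each partner list the text names up to 4 called genes with the smallest p per comparison with control, and always CENPE, KLC1, KIFAP3 and KIFBP. Alternatives were other scalings, filters, fits, a replicate block, removal of the GC trend and leaving out each library.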

Additional observations from a re-analysis of the deposited data

How the results depend on the processing

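Across 18 alternatives, mitotic kinesins called lower at 200 µM numbered 11 to 13, and none was called higher in any. Leaving out 1 library at a time, kinesins called at 100 µM ranged from 9 to 20, mitotic ones higher at 100 µM from 2 to 4 and lower from 0 to 4, transport ones lower at 200 µM from 0 to 1, and transport ones at 200 µM against 100 µM from 3 to 7 higher and from 1 to 2 lower. The 100 µM counts rose without 200 µM replicate 3, to 20 kinesins called, and in a fit of the 2 groups alone, to 22 kinesins called (55.6% and 61.1%, against 56.1% and 61.2% of all genes under the same settings), with 4 mitotic ones higher, 4 lower and 1 transport one lower. With the GC trend removed, with or without the replicate block, 1 mitotic and 1 transport kinesin were lower at 100 µM. Transport kinesins lower at 200 µM went from 1 to 0 in the fit of the 2 groups alone, with the replicate block, and with the GC trend removed, with or without the block. Replicate numbers did not pair the libraries (same-number correlations of deviations from -0.16 to 0.03), and with the replicate block 10, 23 and 20 kinesins were called at 100 µM, at 200 µM and between doses, against 12, 27 and 22 without it. Of those, 9, 20 and 17 were called under every alternative. Signs changed in 91 cases over 26 fold changes, in 0 of which the value was called as reported and in 2 of which (KIF22 at 100 µM) it was called under the alternative. These log2 fold changes were as follows. With the GC trend removed, KIF14 0.021, KIF15 0.10, KIF18A 0.019, KIF22 -0.28, KIFC1 -0.045, KIF2A 0.023, KIF16B 0.031, KIF1A -0.22, KIF3A 0.16, KIF5B 0.0049 and KIFC3 -0.100 (100 µM against control), KIF7 -0.13, KIF5B 0.017 and KIFC3 -0.032 (200 µM against control), KIF21A -0.0068, KIF27 -0.086, KIF1B -0.0097 and KIFC3 0.068 (200 µM against 100 µM). With the GC trend removed and the replicate block, KIF14 0.021, KIF15 0.10, KIF18A 0.021, KIF22 -0.28, KIFC1 -0.046, KIF2A 0.021, KIF16B 0.030, KIF1A -0.22, KIF3A 0.17, KIF5B 0.0026 and KIFC3 -0.099 (100 µM against control), KIF7 -0.12, KIF5B 0.011, KIF5C 0.014 and KIFC3 -0.036 (200 µM against control), KIF21A -0.013, KIF27 -0.088, KIF1B -0.010 and KIFC3 0.062 (200 µM against 100 µM). With total-count scaling, KIF16B 0.059 and KIF3B 0.052 (100 µM against control), KIF2A -0.027 and KIF7 -0.012 (200 µM against control), KIF27 -0.015 and KIF1B -0.077 (200 µM against 100 µM). Without a filter on low counts, KIF16B 0.0013 (100 µM against control), KIF2A -0.0014 (200 µM against control). With the replicate block alone, KIF2A -0.019 (200 µM against control). With RLE size factors, KIF16B 0.0015 (100 µM against control). With the 2 groups alone, KIF16B 0.0022 (100 µM against control). With DESeq2, KIF16B 0.0014 (100 µM against control). Leave-one-out ranges of fold changes that changed sign were, for 100 µM against control, KIF16B -0.024 to 0.018, KIF1A -0.027 to 0.30, KIF22 -0.015 to 0.060 and KIF3B -0.033 to 0.023, and for 200 µM against control, KIF26B -0.78 to 0.10, KIF2A -0.20 to 0.16, KIF5A -0.19 to 0.14, KIF5B -0.36 to 0.080, KIF5C -0.22 to 0.18, KIF7 -0.10 to 0.17 and KIFC3 -0.083 to 0.39, and for 200 µM against 100 µM, KIF13A -0.059 to 0.013, KIF1B -0.040 to 0.046, KIF21A -0.13 to 0.26, KIF27 -0.20 to 0.27, KIF2A -0.035 to 0.32, KIF5B -0.076 to 0.37 and KIFC3 -0.40 to 0.071. The causes were not tested. KIF4B, KIF6, KIF26B, KIF1A, KIF5A and KIF27 were under 10 CPM in every library, and 6 kinesins had too few counts to be tested.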
